A study of Homo sapiens with 14 samples.

Results

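Splicing of the 9 genes AQR, DHX9, DDX5, RNASEH1, RNASEH2A, RNASEH2B, RNASEH2C, TOP1 and TOP3B was compared between SF3B1-WT and SF3B1-MT HEK293T cells. These genes encode enzymes that remove R-loops or limit their formation. Every splice event of the 9 genes with a mean of at least 10 junction reads was taken, which gave 95 of the 102 events listed for them and of 114349 events listed in all. No event of the 9 genes passed the test, which only 26 of all 83581 tested events (0.0311%) passed. At that share, the lack of a call does not set the 9 genes apart. In 8 genes every difference between the genotypes was below 0.1 on the scale of the inclusion level, which runs from 0 to 1. Only TOP3B had larger differences, in 6 of its 34 tested events, and none of these passed the test either. These 6 were 7.06% of the 85 tested events of the 9 genes, compared with 5.8% of all tested events.

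R-loops are structures in which nascent RNA pairs with its DNA template and leaves the other DNA strand single. RNase H1 and the RNase H2 complex cut the RNA of such hybrids, the helicases AQR, DHX9 and DDX5 can unwind them, and the topoisomerases TOP1 and TOP3B relieve the torsion in DNA that favors their formation. SF3B1 is a subunit of the U2 snRNP, the part of the spliceosome that recognizes the branch point, and mutant SF3B1 is known for the use of cryptic 3′ splice sites shortly upstream of the normal site.

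RNA-Seq was available for HEK293T, a human embryonic kidney cell line, with 3 WT libraries (SF3B1 K700K) and 3 MT libraries (SF3B1 K700E). The WT and MT lines are isogenic, and the mutation was placed at the endogenous locus. A second readout came from DRIP-seq, which maps DNA:RNA hybrids with an antibody, in isogenic lines of Nalm-6, which derive from a B cell leukemia. For WT (K700K) and for MT (K700E) there were 2 libraries of untreated DNA and 2 of DNA digested with RNase H (RNH1). No other treatment is given for either line. The labels do not say that libraries came from separate cultures or clones, so the p-values measure only the spread between these libraries, which may be technical. The genotype, cell line and gene expression were not checked here, because the splice table holds junction reads only. The table lists 6 MT values per event and gives 3 of them a column, and whether these are the same as the labelled MT libraries is not settled. The names MT 1 to MT 3 follow the order of the columns. Junction reads summed over events ranged from 9832437 to 13256485 per library, with reads counted again in each event that shares them, and from 9805 to 14593 over the 74 member events with recovered counts.

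The 95 events consisted of 64 skipped exons, 15 pairs of mutually exclusive exons, 5 alternative 3′ splice sites, 4 alternative 5′ splice sites and 7 retained introns. TOP3B had 35 events, DDX5 17, AQR and DHX9 12 each, TOP1 8, RNASEH2B 7, RNASEH1 2, and RNASEH2A and RNASEH2C 1 each. The inclusion level is the share of junction reads, after correction for the length of each form, that support the exon, the intron or the longer form of an exon. In 56 events it was 0.95 or more in both genotypes, among them 50 of the 64 skipped exons, and in 7 events it was 0.05 or less in both. Of the 95 events, 9 had the same level in all 6 libraries and 1 had no level in an MT library, which left 85 for the test. At the edge of the read minimum, the skipped exon of TOP3B with 7.42 reads (0.257 in WT, 0.0813 in MT) and that of DDX5 with 5.08 reads (0.146 in WT, 0.376 in MT) fell outside, and an exon of AQR with 12.9 reads (1.0 in WT) and an exon of TOP3B with 13.0 reads (0.696 in WT, 0.522 in MT) fell inside.

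Levels of MT and WT were compared by limma with Benjamini-Hochberg adjustment over all 83581 events tested, and an event was called at an adjusted p under 0.05 and a difference above 0.1. Of the 85 member events, 0 were called, against a background of 0.0311% of all events (26 of 83581). The lowest adjusted p of a member event was 0.727. The libraries of WT and MT did not overlap in 7 of the 85 member events, compared with 4564 of all 83581 events (5.46%). The 7 include a pair of DDX5 events with the same skipping reads and an RNASEH2B exon with at most 3 inclusion reads per library. At an unadjusted p under 0.05 there were 4 member events (4.71%), and 4.47% of all events passed that line. A quasi-binomial fit to the junction counts, possible for 68 member events, also called 0, with 6 at an unadjusted p under 0.05. The level was higher in MT in 36 events, lower in 48 and equal in 1, with a median difference of -0.0007, compared with -0.002 over all events. The median size of the difference was 0.0087 in member events and 0.0137 in all events. As a reference, the alternative 3′ splice site of SERBP1, which encodes an mRNA-binding protein, had levels of 0.461, 0.5 and 0.509 in WT libraries and 0.801, 0.757 and 0.805 in MT libraries. It was taken as the SERBP1 event with the lowest p, which was also the lowest of all events tested. This event therefore does not show the smallest size that the design could detect. Its mean level was higher by 0.298 in MT (limma with Benjamini-Hochberg adjustment, adjusted p = 6.76e-10). That event had 3560 reads, more than any member event.

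**Figure D1:**
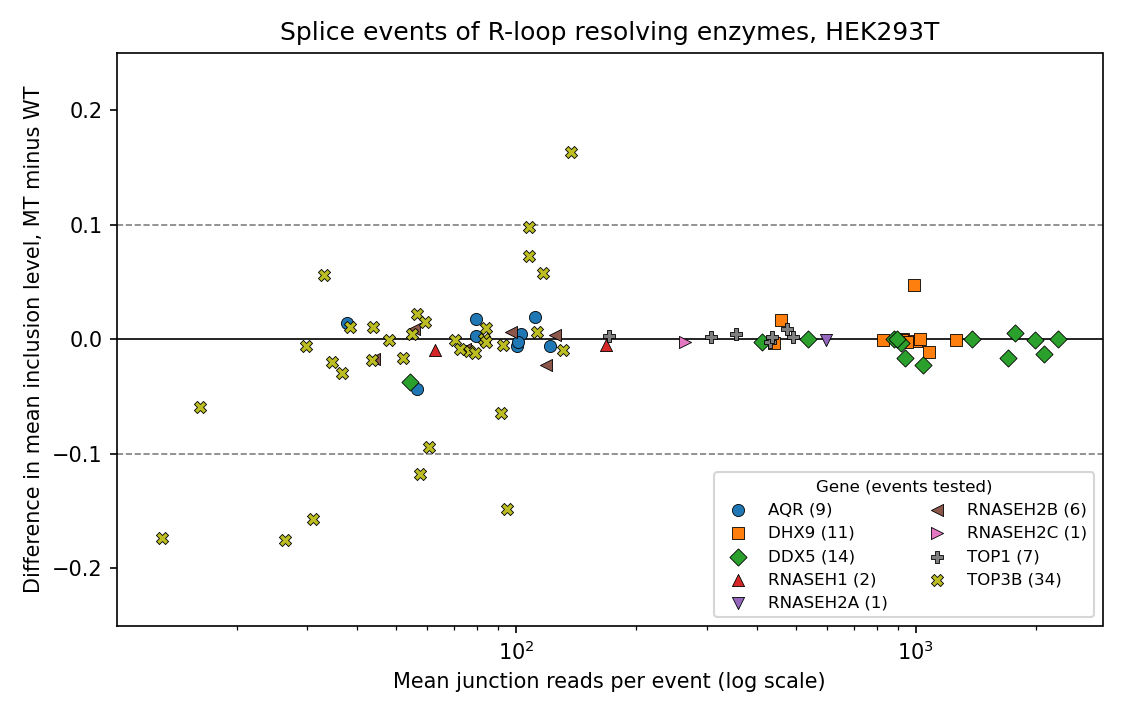
Difference in mean inclusion level (MT minus WT) of the 85 tested member events against their mean junction reads on a log axis, with 1 symbol per gene and dashed lines at a difference of 0.1 in either direction. All 6 events beyond the lines are events of TOP3B, and the best covered of them had 137 reads.

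Splice site sequences of the events with a choice of sites are shown first, because mutant SF3B1 acts at 3′ splice sites. The windows are 30 bases of GRCh38, with 25 intron bases and 5 exon bases, and the capitals mark the AG at the end of the intron. DDX5 had 3 such pairs and TOP3B 2, and the cassette exon of DHX9 is added because it was the best covered exon with an intermediate level. The DDX5 sites are on the minus strand at chr17:64506258-64506287 and chr17:64506255-64506284 for the pair 3 bases apart, and at chr17:64504876-64504905 and chr17:64504838-64504867 for the pair 38 bases apart. The TOP3B sites 127 bases apart are on the minus strand at chr22:21963016-21963045 and chr22:21962889-21962918, and the DHX9 site is on the plus strand at chr1:182855552-182855581.
DDX5, 3-base pair, longer form: ctcattcatttctaccggtctctAGtagtg
DDX5, 3-base pair, shorter form: attcatttctaccggtctctagtAGtgcag
DDX5, 38-base pair, longer form: aatctatacagaaacctgggtatAGccatt
DDX5, 38-base pair, shorter form: tgaataacgttttttttcattccAGgtttg
TOP3B, 127-base pair, longer form: cacattttctttcctccttccccAGgattt
TOP3B, 127-base pair, shorter form: actgactagccctggcctgttgcAGggggt
DHX9 cassette exon: tttctggtgtcgctgttccccctAGgtgga

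All of these sites follow an AG. In the 23 bases before the AG, pyrimidines numbered 18 and 16 in the DDX5 pair 3 bases apart, and 10 in the upstream and 16 in the downstream site of the pair 38 bases apart. In TOP3B they numbered 21 in the upstream and 14 in the downstream site. The remaining pairs lay 326 bases apart in DDX5 and 504 bases apart in TOP3B. The first spans the 111-base exon 9 and a 215-base intron, and the second the 150-base exon 15 and a 354-base intron. The sites of these pairs therefore open successive exons and do not compete for 1 exon. Among the pairs that open the same exon, those 3 and 38 bases apart were in DDX5 and the one 127 bases apart was in TOP3B.

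RNASEH1 encodes the single-subunit RNase H1. Its best covered event, the coding exon 2 of 116 bases (chr2:3556789-3556904, minus strand), was included at 1.0, 1.0 and 1.0 in WT and 0.984, 1.0 and 1.0 in MT. A single read that skipped the exon was found in MT 1 and 0 in the other 5 libraries, against 118 to 222 reads that included it. The other event, a 169-base exon outside the canonical transcript, was included at 0.01, 0.0 and 0.025 in WT and 0.0, 0.0 and 0.007 in MT (limma, adjusted p = 0.856). Both groups overlapped in both events.

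RNASEH2A, RNASEH2B and RNASEH2C encode the catalytic subunit of RNase H2 and its 2 accessory subunits. The coding exon 7 of RNASEH2A (124 bases, chr19:12813083-12813206) had a level of 1.0 in all libraries but MT 3, where it was 0.997, from 1 skipping read against 595 reads of inclusion. In RNASEH2C, the coding exon 4 (129 bases, chr11:65719681-65719809) had a level of 1.0 in every library but MT 3 at 0.993, again from 1 read. The groups overlapped in both genes, and neither had a further event to compare.

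RNASEH2B had 7 events. Exons 2, 3, 8 and 10 of its canonical transcript were included at 0.974 or more in every library. A 248-base exon that 1 of 46 annotated transcripts holds (chr13:50950071-50950318) was included at 0.011, 0.02 and 0.021 in WT and at 0.0 in all 3 MT libraries. The groups did not overlap, but the difference rested on 1, 1 and 3 inclusion reads in WT against 0 in each MT library (limma, adjusted p = 0.856). The largest difference in mean level in this gene was -0.0223 (95% interval -0.17 to 0.124), in the choice of exon 2 over exon 3, with levels of 0.408, 0.551 and 0.363 in WT libraries and 0.216, 0.537 and 0.502 in MT libraries. Both the lowest and the second highest of these 6 values were MT libraries, and the groups overlapped.

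As listed, a mutually exclusive event compares the junction reads of 1 exon with those of a later exon, such as exon 2 and exon 3 of RNASEH2B. A transcript that holds both exons adds reads to each side. In all 15 such events of the 9 genes both exons occur together in at least 1 annotated transcript, and in 11 events no annotated transcript has either of the exclusive forms. Where transcripts hold both exons, the level is a ratio of junction reads at separate places of a transcript and not a share of isoforms, and it is called a ratio here.

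AQR encodes a helicase of the intron-binding complex of the spliceosome. Its exons 2, 3, 5, 10, 12, 16, 21, 27 and 28, of 35 in the canonical transcript, were listed as skipped exons. Among events with at least 10 reads, the lowest level of any of them in any library with a level was 0.957. The best covered event that varied was exon 27, at 1.0 in all libraries but MT 2, where it was 0.982. A 5′ splice site 26 bases downstream of the main site, which reads into a stretch that is coding in another transcript, was used at 0.068, 0.009 and 0.031 in WT and 0.084, 0.009 and 0.024 in MT. The largest difference was in retention of a 677-base intron (chr15:34874000-34874676), with levels of 0.026, 0.124 and 0.148 in WT libraries and 0.079, 0.033 and 0.055 in MT libraries. WT 1 was the lowest and the other WT libraries were the highest of the 6, and the difference of -0.0437 had a 95% interval of -0.086 to 0.062 (limma, adjusted p = 0.856). It was -0.0803 without WT 1 and -0.0193 without WT 3.

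DHX9 encodes a DExH-box RNA helicase. Its 12 events had 442 to 1260 reads, and the skipped canonical exons 2, 3, 10, 12, 15, 21, 22 and 23 had levels of 0.969 or more in every library. Exon 12, the best covered, was skipped only in MT 1, at a level of 0.998. The cassette exon of 137 bases (chr1:182855577-182855713), whose 3′ splice site is printed above, was the one skipped exon of this gene with an intermediate level. It was included at 0.112, 0.147 and 0.134 in WT and 0.111, 0.128 and 0.206 in MT, a mean of 0.131 ± 0.0177 and 0.148 ± 0.0507 (SD, n = 3). MT 3 was the highest and MT 1 the lowest of the 6 values, and the difference of 0.0173 had an interval of -0.033 to 0.071 (limma, adjusted p = 0.856). The exon's length is not a multiple of 3, and no annotated transcript codes in it. The largest difference of DHX9 was in the ratio of exon 22 to exon 23, at 0.456, 0.512 and 0.44 in WT and 0.517, 0.524 and 0.509 in MT. Only MT 3 fell below the highest WT library, and the difference of 0.0473 (95% interval -0.004 to 0.099, limma, adjusted p = 0.856) did not pass. Exons 22 and 23 were each included at 0.994 or more as skipped exons.

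DDX5 encodes a DEAD-box RNA helicase and had the deepest coverage, up to 2260 reads per event. The event with most reads, exon 2 as a skipped exon, had levels of 0.998 to 1.0 in all libraries. Exon 12, a coding exon of 225 bases (chr17:64500549-64500773), was included at 0.994, 0.992 and 0.993 in WT and 0.978, 0.971 and 0.991 in MT. All MT values lay below all WT values, and the difference of means was -0.013 with an interval of -0.025 to -0.002 (limma, adjusted p = 0.856). The reads that joined exon 11 to exon 13 numbered 4, 9 and 8 in WT and 10, 34 and 15 in MT. An alternative 5′ splice site event of DDX5 was measured with the same skipping reads, and its levels were 0.991 in each WT library and 0.968, 0.967 and 0.989 in the MT libraries (limma, adjusted p = 0.856). These are 2 of the 4 member events with an unadjusted p under 0.05, and they are one observation. The MT inclusion counts of both events could not be recovered, so neither entered the quasi-binomial fit.

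Of the 3 alternative 3′ splice sites of DDX5, the pair 326 bases apart was at 1.0 in all 6 libraries. The upstream site of the pair 38 bases apart, the one with 10 pyrimidines, was used at 0.039, 0.026 and 0.028 in WT libraries and 0.035, 0.019 and 0.03 in MT libraries, with a difference of -0.003 (95% interval -0.018 to 0.016) at 916 reads. In the pair 3 bases apart, which lies outside the coding region, the upstream site was used at 0.987, 0.957 and 0.976 in WT and 1.0, 0.947 and 0.862 in MT. That difference of -0.037, the largest of DDX5, came with an interval of -0.118 to 0.025 (limma, adjusted p = 0.877) and rested on 8 reads at the downstream site in MT 3 against 0 to 3 in each other library. Without MT 3 it was 0.0002. The retained introns of DDX5 had intermediate levels. The 1236-base intron between exons 11 and 12 was retained at 0.194, 0.353 and 0.302 in WT and 0.236, 0.303 and 0.262 in MT, and a 215-base intron at 0.175, 0.101 and 0.107 in WT and 0.132, 0.08 and 0.105 in MT. WT and MT overlapped in both, with differences of -0.016 (interval -0.073 to 0.05) and -0.022 (interval -0.055 to 0.018).

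**Figure D2:**
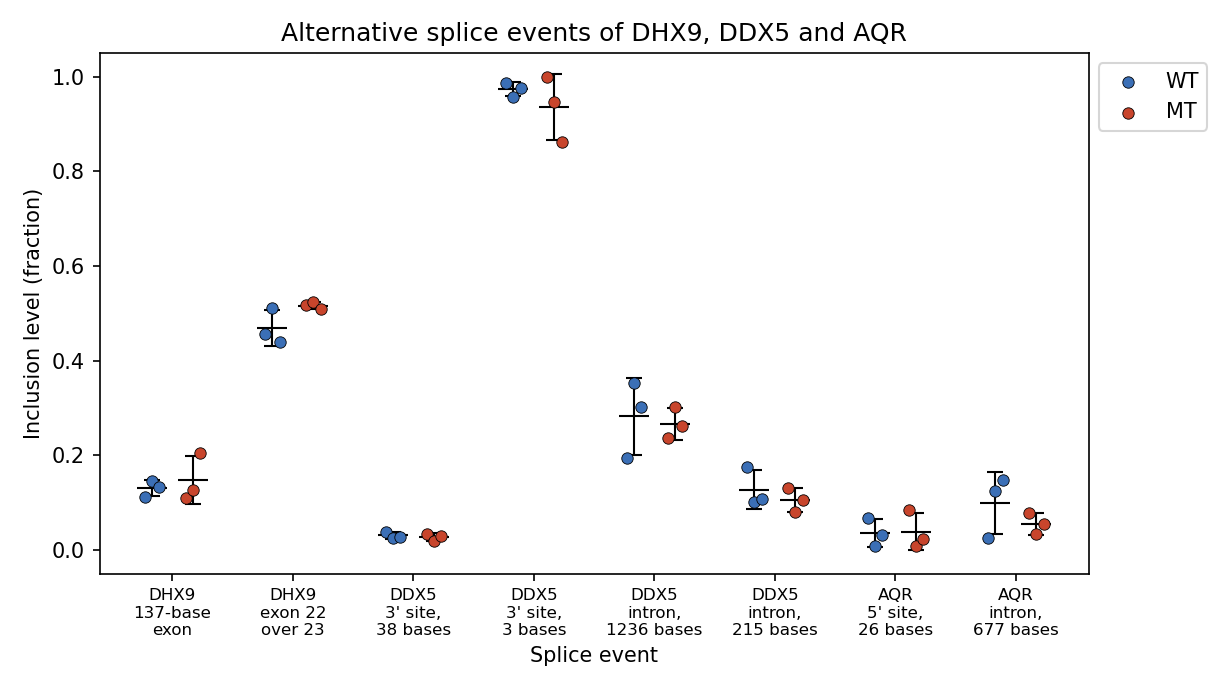
Inclusion level (fraction) in the 3 WT and 3 MT libraries of 8 splice events of DHX9, DDX5 and AQR, with 1 point per library, a horizontal bar at the mean and error bars of 1 SD. The points of WT and MT overlap in each event, and the largest gap between means is in the ratio of exon 22 to exon 23 of DHX9 (0.469 and 0.517).

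TOP1, the main topoisomerase that removes supercoils in front of and behind RNA polymerase, had 8 events, with 171 to 491 reads. Its 7 skipped exons, which are canonical exons 3, 4, 6, 9 and 13, had levels of 0.979 or more in every library. Exon 4 in its best covered event was at 0.979, 1.0 and 1.0 in WT and 0.989, 1.0 and 0.996 in MT. The ratio of exon 3 to exon 4 was 0.379, 0.362 and 0.333 in WT libraries and 0.365, 0.395 and 0.34 in MT libraries, a difference of 0.0087 with an interval of -0.053 to 0.073. Both events had MT libraries between the WT libraries.

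TOP3B, a topoisomerase that acts on DNA and RNA, stood apart in the number of events and in their levels. Of its 35 events, 21 were neither at 0.95 or more nor at 0.05 or less in both genotypes, compared with 11 of the 60 events of the other 8 genes. Both counts include ratios of mutually exclusive exons, whose level is not a share of isoforms. Its events had a median of 60.7 reads and at most 137. A difference above 0.1 was measured in 6 of 34 tested events (17.6%), compared with 5.8% of all events and 0 of 51 in the other 8 genes. Over the 85 member events together the share was 7.06%. Among all tested events with 13.0 to 137 reads, 7.07% had such a difference, and among those with a mean level between 0.05 and 0.95 it was 17.8%, against 28.6% (6 of 21) in TOP3B. The event types were not matched in these comparisons. Some TOP3B events share junction reads, so they are not independent of each other. The libraries of WT and MT did not overlap and differed by more than 0.1 in 3 of the 85 member events (3.53%), all in TOP3B, and in 1.73% of all events. These 3 were 8.82% of the tested TOP3B events, compared with 2.24% of all events with 13.0 to 137 reads, and 14.3% compared with 5.65% at levels between 0.05 and 0.95.

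The lowest p of all member events belonged to the ratio of exon 5 (75 bases, chr22:21971877-21971951) to exon 7 (157 bases) of TOP3B. Levels were 0.483, 0.443 and 0.472 in WT libraries and 0.684, 0.548 and 0.656 in MT libraries, so that every MT library was above every WT library. The means were 0.466 ± 0.0207 and 0.629 ± 0.0718 (SD, n = 3), and the difference was 0.163 with a 95% interval of 0.056 to 0.266 (limma, adjusted p = 0.727). Reads on the side of exon 5 numbered 48, 51 and 54 in WT and 45, 105 and 160 in MT, and on the side of exon 7 they numbered 57, 71 and 67 in WT and 23, 96 and 93 in MT. As skipped exons, exon 5 had levels of 0.965 to 1.0 in its 2 events and exon 7 of 0.893 to 1.0, and 5 annotated transcripts hold both. The ratio of exon 7 to exon 8 was also higher in every MT library, at 0.58, 0.451 and 0.436 against 0.425, 0.327 and 0.421 in WT. That difference was 0.098 (interval -0.024 to 0.222, limma, adjusted p = 0.856). Both ratios contain exon 7, but on opposite sides: it stands second in the ratio to exon 5 and first in the ratio to exon 8. In the opposite direction, the ratio of exon 15 (150 bases, chr22:21959587-21959736) to exon 16 (101 bases) was 0.473, 0.446 and 0.538 in WT libraries and 0.262, 0.321 and 0.429 in MT libraries. All MT values were the lower ones, and the difference was -0.148 with an interval of -0.267 to -0.022 (limma, adjusted p = 0.856). Exons 15 and 16 as skipped exons were at 0.97 or more in every library.

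The introns of TOP3B were partly retained. An 896-base intron near the 3′ end of the gene (chr22:21957596-21958491) was retained at 0.314, 0.368 and 0.52 in WT and 0.2, 0.254 and 0.278 in MT. The groups did not overlap, yet the spread in WT was wide, and the difference of -0.157 had an interval of -0.309 to 0.041 (limma, adjusted p = 0.856). Without WT 3 the difference was -0.097, under the 0.1 line. The event had 31.0 reads on average, with 11, 14 and 26 intron reads in WT and 5, 17 and 20 in MT. The 354-base intron between exons 15 and 16 was retained at 0.373, 0.157 and 0.342 in WT and 0.224, 0.153 and 0.141 in MT, a difference of -0.118 (interval -0.22 to 0.029), with WT 2 among the MT values. For a 144-base intron the levels were 0.159, 0.138 and 0.094 in WT libraries and 0.172, 0.082 and 0.151 in MT libraries, a difference of 0.0047 (interval -0.085 to 0.129).

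The largest difference in mean level of any member event was at an alternative 5′ splice site in the noncoding 5′ part of TOP3B, where the longer form adds 76 bases (chr22:21975905-21975980). The sites are printed as 10 exon and 20 intron bases of GRCh38 on the minus strand, with the GT that opens the intron in capitals, at chr22:21975885-21975914 for the longer and chr22:21975961-21975990 for the shorter form.
TOP3B, 76-base pair, longer form: cttgcctcagGTtggtcttgttttttcttt
TOP3B, 76-base pair, shorter form: agctgacctgGTagttttttcttgttttta

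The longer form was used at 0.658, 0.674 and 0.442 in WT and 0.658, 0.227 and 0.364 in MT. MT 1 was as high as WT 1, WT 3 was between the MT libraries, and the difference of -0.175 had an interval of -0.409 to 0.069 (limma, adjusted p = 0.856) at 26.4 reads. It was -0.0803 without MT 2 and -0.296 without MT 1. An 82-base exon between exons 5 and 6 (chr22:21970980-21971061) was measured against 2 sets of neighbors. In the event with 13.0 reads it was included at 0.399, 0.854 and 0.835 in WT and 0.515, 0.819 and 0.233 in MT, a difference of -0.174 with an interval of -0.529 to 0.143. In the event with 60.7 reads, between neighbors that annotated transcripts join, it was included at 0.2, 0.289 and 0.454 in WT and 0.294, 0.269 and 0.099 in MT, a difference of -0.0937 with an interval of -0.221 to 0.063. The genotypes overlapped in both. The upstream 3′ splice site of the pair 127 bases apart was used at 0.071, 0.094 and 0.063 in WT and 0.07, 0.108 and 0.115 in MT, a difference of 0.0217 (interval -0.05 to 0.13).

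**Figure D3:**
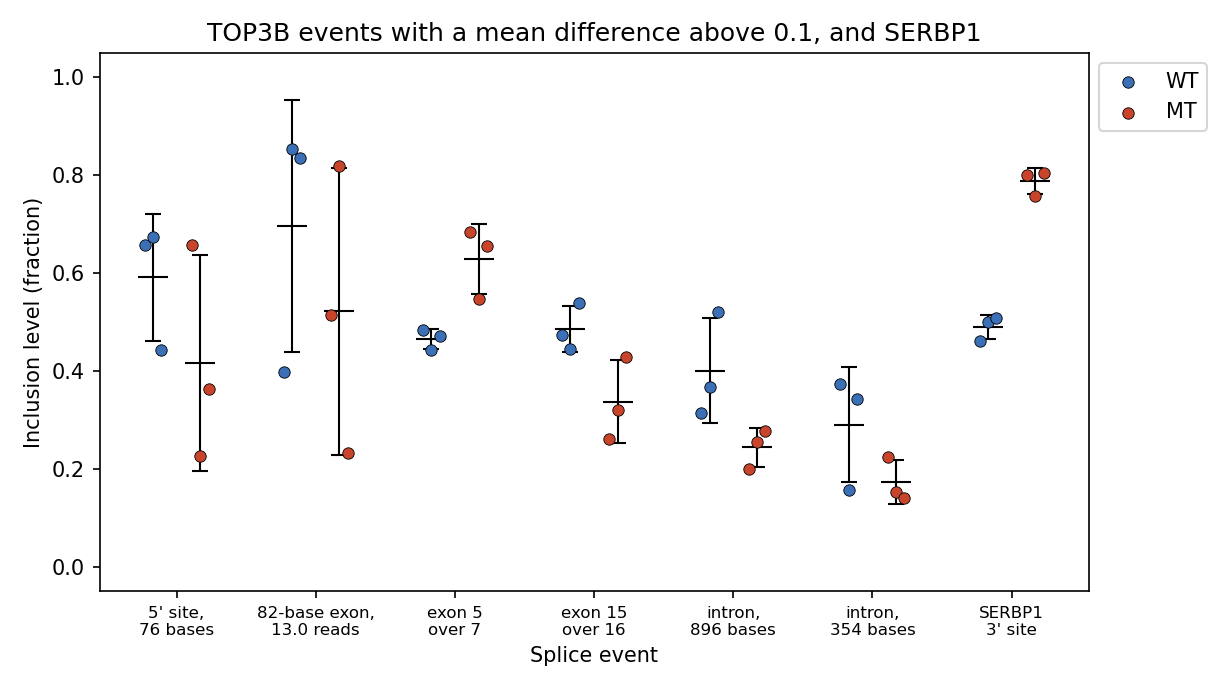
Inclusion level (fraction) in the 3 WT and 3 MT libraries of the 6 TOP3B events with a mean difference above 0.1 and of the SERBP1 3′ splice site as a reference, with 1 point per library, a horizontal bar at the mean and error bars of 1 SD. WT and MT do not overlap for exon 5 over 7, exon 15 over 16, the 896-base intron and SERBP1, and only SERBP1 passed the test.

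The other genes of R-loop metabolism were read from a list of 52 genes with helicases, Fanconi anemia and replication factors, THO and export factors, and splicing factors with a role at R-loops. Of these, 50 had tested events, 678 in all, and 0 were called by limma, against 0.0311% of all events. At an unadjusted p under 0.05 there were 32 events (4.72%), against 4.47% of all events. The groups did not overlap and differed by more than 0.1 in 6 events (0.885%), against 1.73% of all events. The median size of the difference was 0.0077. Ranked by p, the first was a 70-base exon of THOC2, a subunit of the THO complex that couples transcription to mRNA export. It was included at 1.0, 1.0 and 0.987 in WT libraries and 0.923, 0.965 and 0.972 in MT libraries, with no overlap and a difference of -0.0423 (interval -0.0852 to -0.0144, limma, adjusted p = 0.343). The next was a 3′ splice site of THOC1, another THO subunit, that adds 21 bases, used at 0.049, 0.142 and 0.172 in WT and 0.282, 0.283 and 0.25 in MT. The groups did not overlap, and the difference was 0.151 (interval 0.0507 to 0.278, limma, adjusted p = 0.665). The authors reported an alternative 3′ splice site of THOC1 with SF3B1 mutation and measured it by reverse transcriptase qPCR. Whether it is the same site was not checked here, and the lack of a call does not show a lack of change. For RPA1, the large subunit of the single-strand binding protein RPA, 2 events differed by -0.026 and 0.0193 (limma, adjusted p = 0.773 and 0.83). An exon of FANCI, a Fanconi anemia protein, was at 0.989, 0.99 and 0.993 in WT and 1.0 in all MT libraries (limma, adjusted p = 0.856).

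DRIP-seq peaks over the bodies of the 9 genes gave a second readout in Nalm-6 cells, for which no splice table was used here. Bona fide peaks were those of untreated DNA without any overlap with the RNH1-treated library that had the same genotype and replicate number. Such peaks numbered 17 and 14 over the 9 genes in the WT libraries and 26 and 21 in the MT libraries, a mean of 15.5 ± 2.12 and 23.5 ± 3.54 (SD, n = 2). Both MT libraries were higher, at the smallest p that 2 libraries against 2 allow (two-sided exact permutation test, p = 0.333). The ratio of MT to WT was 1.52 over the 9 genes and 1.47 over all bona fide peaks of the libraries. The peak lists hold no reads, so depth is unknown and these counts carry no interval.

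By gene, RNASEH2B had 9 and 8 peaks in the MT libraries, compared with 3 and 0 in WT, and TOP1 had 6 and 4 compared with 3 and 2. AQR had 6 and 7 bona fide peaks in WT but 3 and 4 in MT. Its untreated peaks were level, at 11 and 12 in WT and 10 and 12 in MT, and peaks of RNH1-treated DNA over AQR numbered 5 and 6 in WT and 9 in each MT library. DHX9 held 3 and 4 in WT and 3 in each MT library, DDX5 held 2 in MT 1 and 0 in the other libraries, and RNASEH1 held 1 in WT 1, 0 in WT 2 and 2 in each MT library. RNASEH2A and RNASEH2C, the shortest of the 9 genes at 7.1 and 6.8 kb, held 0 peaks in every library. TOP3B had 1 peak in both WT libraries, at positions that share chr22:21965677-21966081, and 1 and 0 in MT at another place.

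**Figure D4:**
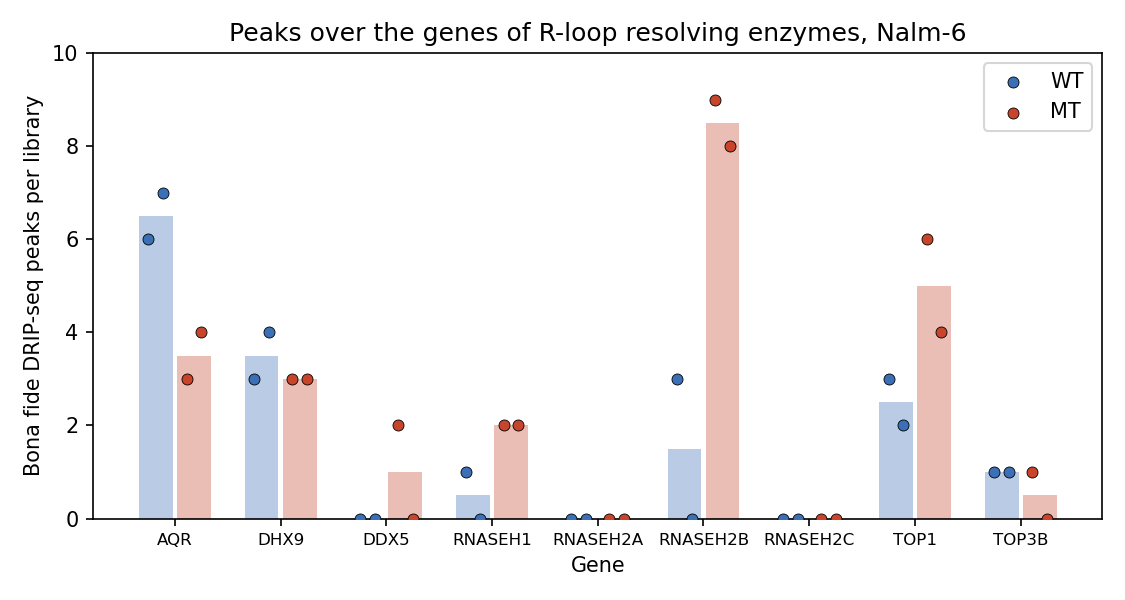
Bona fide DRIP-seq peaks over each of the 9 genes in Nalm-6 cells, with bars at the mean of the 2 libraries of a genotype and 1 point per library. RNASEH2B (9 and 8 against 3 and 0) and TOP1 (6 and 4 against 3 and 2) had more peaks in both MT libraries, and AQR (3 and 4 against 6 and 7) fewer.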

How the data were processed

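RNA-Seq of 3 WT and 3 MT HEK293T libraries and DRIP-seq of Nalm-6 libraries were analysed. Per the labels, libraries were grouped by genotype and treatment. The authors computed inclusion levels after the rMATS model and deposited them as a fraction with 3 decimals, beside mean reads, form lengths and lists of counts, and their notes name STAR and StringTie on GRCh38. In all rows the MT columns equalled places 1, 2 and 6 of the 6 values listed, and the mean reads of MT cover all 6. Lists of counts that a spreadsheet had run together were split where 1 division kept the known levels (111008 of 114349 events, and 74 of 95 member events). The authors' p-values, adjusted p-values and level differences were not used. For DRIP-seq, the authors called peaks per library with MACS2, and the deposited fold enrichment is a ratio over the local background.

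The arcsine square root of each level was taken and WT and MT were compared in R 4.3.3 with limma 3.58.1, whose variance prior followed log mean reads, with Benjamini-Hochberg adjustment. Events with a level in all 6 libraries and a mean of at least 10 reads entered, apart from 10424 with 1 level throughout. The 95% intervals were computed on the arcsine scale and turned back, and they are less exact for levels near 0 or 1, where most were left out. The comparison was tested on simulated data. Events were placed on GENCODE 44, and peaks were overlapped with bedtools 2.31.1, by at least 1 base. The named events were, for each gene, the event with most reads that varied and the one with the largest difference, those whose groups did not overlap with a difference above 0.1, and the 5 lowest p of the other factors. Further events with choices of site or intermediate levels were named after their values were seen. The members and lists were chosen with earlier results of these data known.

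The kit marks strand, but the setting used in counting is not given in the sources used here. Each gene but RNASEH1 overlaps a gene on the other strand, and DHX9, DDX5, RNASEH1, RNASEH2C, TOP1 and TOP3B have an annotated copy named as a pseudogene, whose reads could not be told apart here.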

Additional observations from a re-analysis of the deposited data

How the results depend on the processing

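Each alternative (logit scale, no variance trend, minima of 20, 50 or no reads, each library left out, a quasi-binomial fit to junction counts, events with 1 level kept) called 0 member events and 0 events of the other factors. The lowest adjusted p of a member event over these was 0.459, in the quasi-binomial fit, and the number at an unadjusted p under 0.05 ranged from 1 to 6. Over all events, 26 calls became 3 on the logit scale, 0 without the variance trend (3200 at an unadjusted p under 0.05), 17 at a minimum of 50 reads, 57 in the quasi-binomial fit, and 3 to 13 with 1 library left out; the cause was not tested. The difference of a named event is taken from the same levels in every fit, so only leaving out a library could change it. Of 224 values of the 18 named events under the alternatives, 8 turned direction, with a difference of 0.0 not counted as turned. The 8 that turned did so with 1 library left out: DDX5 3-base 3′ splice site -0.0688 to 0.0002, DDX5 exon 2 -0.0002 to 0.001, RNASEH2B exon 2 over 3 -0.0817 to 0.0788, TOP1 exon 3 over 4 -0.0055 to 0.022, and TOP1 exon 4 -0.005 to 0.0055. The difference in DRIP-seq peaks, 8.0, was 26.5 without the subtraction of RNH1 peaks, 4.0 at a fold enrichment of at least 4, and 5.5 to 10.5 with 1 library left out. No paired analysis was possible because the MT columns carry no replicate number. The widest interval in TOP3B, -0.529 to 0.143, belonged to its event with the lowest depth, 13.0 reads.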
